A study of Homo sapiens with 12 samples.

Results

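The granins and synapsins were examined in HEK293 cells transfected with PEG10, as the 10 genes *SCG2*, *SCG3*, *SCG5*, *CHGA*, *CHGB*, *VGF*, *PCSK1N*, *SYN1*, *SYN2* and *SYN3* of the 26485 gene symbols in the count table. All 10 passed edgeR's filter on low counts, which kept 17176 genes. The choice of genes used measured values: *SCG3* stood out between gag-pol and control and *SYN1* between NC and control, and the other 8 genes were added as members of the same families. Values of *SCG3* and *SYN1* are therefore given with no test wherever a comparison uses those libraries, which leaves a test of NC against gag for *SCG3* and of gag-pol against gag for *SYN1*.

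HEK293 is a human line derived from embryonic kidney, and all cells here were wild type. They were transiently transfected with full-length PEG10 gag-pol, with PEG10 gag, with the nucleocapsid (NC) fragment from the end of gag, or with LifeAct-Dendra2 as control, an actin-binding peptide fused to a fluorescent protein, and were harvested at one time after transfection. PEG10 is a gene derived from a retrotransposon, and the comparison of constructs asks which piece of its protein alters transcript levels. Each construct has 3 libraries of poly(A) RNA from independent passages. Replicate number is a term of the model, so p-values set a construct difference against how much it varies between passages of one line. The share of cells that took up plasmid is not given in the sources used here, and in bulk RNA fewer cells expressing a gene and less RNA per cell cannot be told apart.

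Library totals ran from 30625725 to 45316749 counts. *PEG10* took 0.0306% ± 0.00658 of the counts in control cells and 4.54% ± 2.46, 5.27% ± 1.29 and 0.310% ± 0.0757 with gag-pol, gag and NC (SD, n = 3 each), so every transfected group lay above control. *KRT8* and *KRT18*, keratins of this epithelial line, reached 9787 to 11710 and 2903 to 3406 normalized counts (counts scaled to the mean library size). *INS* and *SLC17A6*, markers of beta cells and of glutamatergic neurons, had no count in any library, and *TH*, which marks catecholamine cells, had at most 1. The summed level of the 8 markers of the line was 19130 to 23470 in control and 24680 to 25940, 21780 to 23770 and 23830 to 29600 with gag-pol, gag and NC. Among them the neurofilament gene *NEFL* had a log2 fold change of 0.56 with gag-pol and 0.75 with NC. Of 7 neuron markers 6 were tested, and some were not near 0: *GAD1*, which makes GABA, had 709 to 910.2 normalized counts over the 12 libraries, the neuronal splicing factor gene *RBFOX3* 227 to 578 and the vesicular glutamate transporter gene *SLC17A7* 75.0 to 244, while *PNMT*, of adrenaline cells, had 30.1 to 103. The summed neuron list was 1305 to 1462 in control and 1495 to 1657, 1271 to 1599 and 1435 to 1518 with gag-pol, gag and NC, and its one call was *RBFOX3*, which rose with gag-pol by 0.77 on the log2 scale (edgeR adjusted p = 0.00326). The part of these shifts in the results below was not tested.

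Granins are acidic proteins packed into dense-core granules, the organelles from which neurons and endocrine cells release peptides upon stimulation. Some of them aggregate with prohormones and help granules to form, some are cut into peptides of their own, and some chaperone or inhibit the convertases that cut prohormones. Synapsins are phosphoproteins on the surface of small synaptic vesicles that hold the vesicles in reserve, and genes of both families are textbook targets of REST, a zinc finger repressor of neuronal genes that binds the RE1 element, and of CREB, an activator that binds the cyclic AMP response element (CRE).

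Promoters were read for the letters of these elements. In the RefSeq promoter table of GRCh38.p14, 7 of the 10 genes had a 300-base window from 250 bases before to 50 after the start, and *SCG2*, *CHGB* and *SYN3* were not matched. The letters searched on both strands were TTCAGCACC and GGACAG, the left and right parts of RE1, TGACGTCA for the full CRE, its shorter form TGACG, which overlaps the full CRE, TATAAA, and the E-box CAGCTG. *SCG3* and *SYN1* were the members with TTCAGCACC, which 0.376% of the 35116 promoters hold, and both also hold GGACAG downstream of it on the same strand. The stretches that span both parts are shown first, with the searched letters in capitals, because these are the 2 members whose windows hold both parts.
SYN1 RE1 parts: TTCAGCACCgcGGACAG
SCG3 RE1 parts: TTCAGCACCcacagggcGGACAG
The *SYN1* stretch lies on the reverse strand at chrX:47620074-47620090, from base -233 to -217 before the start. The *SCG3* stretch lies on the forward strand at chr15:51681511-51681533, from base 9 to 31 of the first exon. Spaced as in *SYN1*, by 2 bases, which is the canonical spacing, the pair of parts occurs in 5 promoters (0.0142%). Spaced as in *SCG3*, by 8 bases, it occurs in 3 (0.00854%), but that spacing was read from *SCG3* itself.

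The full CRE was found in *CHGA*, *VGF* and *SYN1*, against 1.85% of all promoters, and is shown in windows of 30 bases because *SYN1* shares it with a pair of granins.
CHGA CRE: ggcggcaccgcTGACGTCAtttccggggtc
VGF CRE: tgaatgaacatTGACGTCAatggggcgggg
SYN1 CRE: tgaaggcgcgcTGACGTCActcgccggtcc
These windows are at chr14:92923085-92923114 on the forward strand and at chr7:101165630-101165659 and chrX:47619998-47620027 on the reverse strand. The motif starts 54 bases before the start of *CHGA*, 79 before that of *VGF* and 159 before that of *SYN1*. The letters TGACG alone were in 5 of the 7 members and in 24.6% of all promoters, GGACAG in 3 members and 20.5%, CAGCTG in *SCG3* and *SYN1* and 17.9%, and TATAAA in *VGF* and 11.5%. A match describes these letters and does not show binding.

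Levels of the 10 transcripts in control cells were compared per kilobase of exon. *PCSK1N*, which encodes proSAAS, the inhibitor of prohormone convertase 1, was highest at 1119 ± 39.6 normalized counts per kilobase (SD, n = 3). *VGF*, a neurotrophin-inducible precursor of several peptides, followed at 184 ± 104, and the lowest of its libraries still lay above the highest of *SYN1*. The next 6 genes could not be ordered beyond their spread: *SYN1* at 69.7 ± 34.2, *CHGA* at 67.4 ± 24.9, *SYN2* at 56.1 ± 6.62, *SCG3* at 51.1 ± 13.5, *SCG5* at 48.7 ± 33.6 and *CHGB* at 48.2 ± 30.2 (SD, n = 3 each). *SYN3* was below all of them at 19.7 ± 2.93, and *SCG2*, the precursor of secretoneurin, was lowest at 5.83 ± 5.28 (SD, n = 3 each). *PCSK1N* stood at percentile 90.9 of the 15369 tested genes with a known length, *VGF* at 49.5 and *SCG2* at 11.

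**Figure D1:**
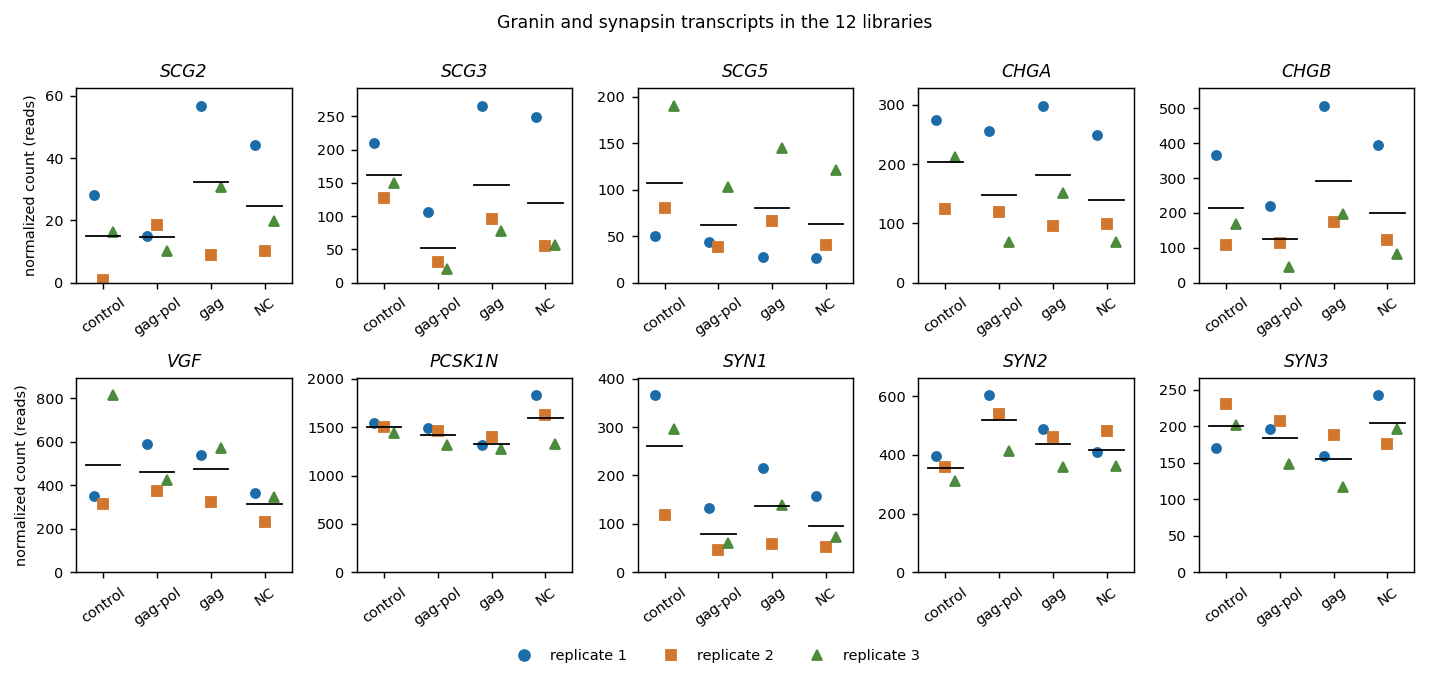
Normalized counts (vertical axis, linear from 0, a separate scale for each gene) of the 10 genes in the 12 libraries by construct, with a marker shape for each replicate number and a line at the group mean (n = 3). Replicate 1 is the highest library of its construct for *SCG3*, *CHGA*, *CHGB* and *SYN1* in all 4 groups, and the lowest for *SCG5* in control, gag and NC.

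*SCG3* encodes secretogranin 3, which binds cholesterol-rich granule membrane and tethers other granins to it (ENSG00000104112.9, chr15:51681492-51721026, forward strand). Its normalized counts in replicates 1, 2 and 3 were 209.7, 127 and 149 in control, 106, 31.2 and 20.6 with gag-pol, 266, 96.0 and 78.2 with gag, and 249, 55.8 and 56.2 with NC. The 3 gag-pol libraries all lay below the 3 control libraries, as did those of 6.75% of genes, and the gag and NC libraries lay above control in replicate 1 and below it in replicates 2 and 3. The fitted log2 fold changes against control, given as a description, were -1.94, -0.37 and -0.78 with gag-pol, gag and NC. NC lay below gag in 3 of 3 replicates, at a log2 fold change of -0.40 (SE 0.28, 95% interval -0.98 to 0.18), which was not called (adjusted p = 0.354, quasi-likelihood test of edgeR, Benjamini-Hochberg adjusted over the 17176 genes). Across the fits that left out 1 library or 1 replicate number this value ran from -0.71 to -0.23.

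*CHGA* and *CHGB* encode chromogranins A and B, the abundant matrix proteins of the granule core (chr14:92923150-92935285 and chr20:5911510-5925353, both on the forward strand), and *CHGA* is also the precursor of vasostatin and catestatin. *CHGB* normalized counts in replicates 1, 2 and 3 were 365, 109 and 169 in control, 219, 115 and 43.8 with gag-pol, 508, 173 and 197 with gag, and 395, 123 and 81.5 with NC. Within each replicate gag-pol was below gag, although the groups overlapped. *CHGB* was lower with gag-pol than with gag at a log2 fold change of -1.25 (SE 0.27, 95% interval -1.82 to -0.68, edgeR adjusted p = 0.0123). The call was lost without gag-pol 1 (adjusted p = 0.067), gag-pol 3 (0.0712), gag 1 (0.0655) or gag 3 (0.0551) and without replicate 1 (0.161), all in edgeR. Against control *CHGB* had log2 fold changes of -0.82, 0.43 and -0.24 with gag-pol, gag and NC, none of them called (edgeR adjusted p = 0.0618, 0.506 and 0.611), and DESeq2 called the first (adjusted p = 0.0184), as did edgeR without control 2 (0.0313), gag-pol 2 (0.00768), replicate 2 (0.00535) or the filter on low counts (0.0246). Between NC and gag *CHGB* was called by edgeR without control 3 (adjusted p = 0.0297), gag-pol 2 (0.0393) or gag-pol 3 (0.0357), at log2 fold changes of -0.70, -0.67 and -0.65.

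*CHGA* normalized counts in replicates 1, 2 and 3 were 274, 124 and 213 in control, 256, 119 and 68.8 with gag-pol, 299, 96.0 and 151 with gag, and 249, 98.6 and 69.4 with NC. With gag-pol and NC the difference from control was largest in replicate 3 and small in replicates 1 and 2. The log2 fold changes were -0.58, -0.26 and -0.68 with gag-pol, gag and NC, and none was called in edgeR (adjusted p = 0.163, 0.734 and 0.105). Without control 1 that with NC was -0.92 and was called (edgeR adjusted p = 0.0472).

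*SCG5* encodes the chaperone 7B2 of prohormone convertase 2 (chr15:32641676-32697098, forward strand). Its normalized counts in replicates 1, 2 and 3 were 49.8, 80.7 and 190.3 in control, 43.3, 38.0 and 103 with gag-pol, 27.8, 66.6 and 145 with gag, and 26.7, 40.0 and 121 with NC. Every construct lay below control within each of the 3 replicates, although the groups overlapped. The log2 fold changes were -0.72, -0.45 and -0.83 with gag-pol, gag and NC, and none was called in edgeR (adjusted p = 0.0993, 0.513 and 0.0584), while DESeq2 called NC (adjusted p = 0.0391). A readthrough transcript of *ARHGAP11A* and *SCG5* shares 1129 exon bases, 51.4% of those of *SCG5*, on the same strand in GENCODE 44, and it has no entry of its own in the count table.

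*PCSK1N* (chrX:48831096-48835610, reverse strand), the most abundant member, had normalized counts of 1441 to 1546 in control, 1320 to 1495, 1270 to 1402 and 1331 to 1829 with gag-pol, gag and NC. The gag libraries all lay below the control libraries, as did those of 2.91% of all genes tested, but the log2 fold change of -0.17 was not called (SE 0.09, edgeR adjusted p = 0.427). *VGF* (chr7:101162509-101165569, reverse strand) ranged from 314 to 813 in control, 373 to 588, 321 to 572 and 233 to 365 with gag-pol, gag and NC. *VGF* in the NC libraries lay below all gag-pol libraries (4.13% of genes did so), and its log2 fold changes with NC of -0.60 against control, -0.58 against gag and -0.58 against gag-pol were not called in edgeR (adjusted p = 0.128, 0.113 and 0.445), although DESeq2 called the first and second (0.0387 and 0.0348). For NC against control *VGF* ran from -0.18 without control 3 to -0.89 without control 1, and edgeR called it without control 1 (adjusted p = 0.00618), gag-pol 3 (0.0499) or replicate 1 (0.046). Against gag, *VGF* was called in edgeR without control 1 (adjusted p = 0.0208), control 3 (0.00698), gag-pol 3 (0.0354) or replicate 3 (0.0484), and against gag-pol without replicate 3 (0.0436). *SCG2* (chr2:223596940-223602361, reverse strand) had 1 to 47 raw counts per library, and its log2 fold changes of 0.43, 1.16 and 0.84 with gag-pol, gag and NC had standard errors of 0.67, 0.63 and 0.63, too wide at this depth to show a difference (edgeR adjusted p = 0.731, 0.432 and 0.425).

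*SYN1* encodes synapsin I, the major synapsin of nerve terminals (ENSG00000008056.14, chrX:47571901-47619857, reverse strand). Its normalized counts in replicates 1, 2 and 3 were 365, 118 and 297 in control, 133, 45.9 and 61.0 with gag-pol, 215, 58.8 and 139 with gag, and 158, 53.0 and 72.7 with NC. Within each replicate the order was the same, with control highest, gag next, then NC and then gag-pol. Replicate 2 was the lowest library of every construct, and the groups overlapped. The log2 fold changes against control, as a description, were -1.71, -0.95 and -1.47 with gag-pol, gag and NC, and that of NC against gag was -0.52. Gag-pol against gag, which uses neither library set that chose *SYN1*, had a log2 fold change of -0.76 (SE 0.23, 95% interval -1.24 to -0.28) and was called at an edgeR adjusted p of 0.0492, just inside the threshold of 0.05. It lost the call without any one of control 1 (adjusted p = 0.066), control 2 (0.0578), gag-pol 1 (0.108), gag-pol 3 (0.313), gag 1 (0.186), gag 2 (0.0684), gag 3 (0.167) or NC 1 (0.0624), and without replicate 1 (0.322) or 3 (0.244), all in edgeR. A long noncoding RNA, ENSG00000283743, shares 928 exon bases with *SYN1* on the same strand, 24.9% of its exons, and is not in the count table.

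*SYN2*, which encodes synapsin II (chr3:12004388-12192032, forward strand), went the other way. Its normalized counts in replicates 1, 2 and 3 were 395, 358 and 312 in control, 603, 541 and 414 with gag-pol, 488, 462 and 360.2 with gag, and 410.2, 482 and 364 with NC. All 3 gag-pol libraries lay above all 3 control libraries, as did those of 6.74% of genes, and *SYN2* rose with gag-pol by 0.54 on the log2 scale (SE 0.13, 95% interval 0.27 to 0.81, edgeR adjusted p = 0.0096). The call was lost without control 2 (adjusted p = 0.0557) or gag-pol 1 (0.0734) and without replicate 1 (0.119) or 2 (0.0586), all in edgeR. With gag and NC the log2 fold changes were 0.29 and 0.24 and were not called (edgeR adjusted p = 0.32 and 0.249), although both were higher in 3 of 3 replicates.

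*SYN3* (chr22:32507820-33058381, reverse strand), the least abundant synapsin, ranged from 170.2 to 230 normalized counts in control, 149 to 207, 117 to 187 and 176 to 242 with gag-pol, gag and NC. Its log2 fold changes against control of -0.14, -0.39 and 0.03 were not called (edgeR adjusted p = 0.695, 0.403 and 0.947). A TIMP gene, encoding an inhibitor of matrix metalloproteinases, lies on the opposite strand within each synapsin gene. *TIMP1* within *SYN1* and *TIMP3* within *SYN3* share no exon bases with their hosts, and their log2 fold changes ran from -0.23 to 0.09 with none called. *TIMP4* shares 170 exon bases with *SYN2* but had at most 4 counts in any library.

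**Figure D2:**
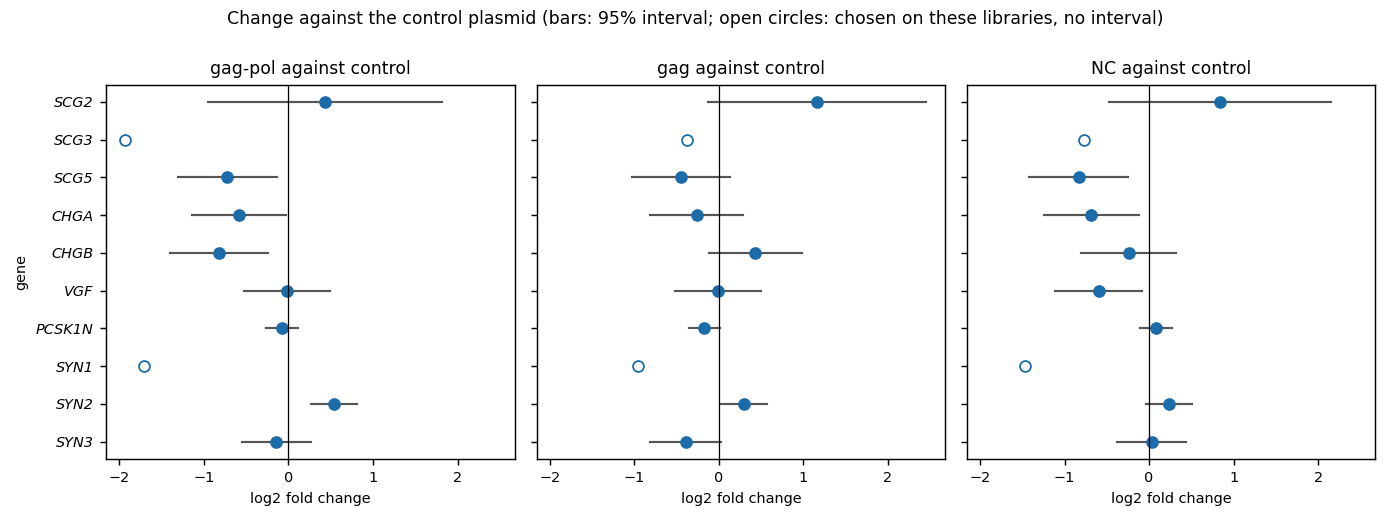
Log2 fold changes of each gene (horizontal axis) with gag-pol, gag and NC against control, with 95% intervals for tested values and open circles without interval for *SCG3* and *SYN1*, which were chosen on these libraries. *SYN2* with gag-pol is the one tested value called in edgeR, at 0.54, and the intervals of *SCG2* are the widest.

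Of the 8 genes whose values did not enter the choice, 1 passed the threshold between gag-pol and control, *SYN2* upward, against 11.3% of all genes tested (5.48% higher and 5.83% lower), a share close to that background. With gag 0 of the 8 were called in edgeR (1.08% of all genes), with 1 at an unadjusted p under 0.05 and 0 called by DESeq2. With NC 0 of the 8 were called in edgeR (11.2% of all genes), with 3 at an unadjusted p under 0.05 and 2 called by DESeq2, *SCG5* and *VGF*. *SCG3* and *SYN1* were also past the threshold with gag-pol, and *SYN1* with gag and with NC, and since these values chose them nothing is read from that. The median log2 fold change of all 10 was -0.36, -0.21 and -0.42 with gag-pol, gag and NC, against medians over all genes of -0.0014, 0.0027 and 0.004. Without *SCG3* and *SYN1* it was -0.11, -0.09 and -0.11. These comparisons share the 3 control libraries. With gag-pol the count of the 8 was 0 without gag-pol 1 or replicate 1, and 2 without gag-pol 2 (*CHGB* and *SYN2*), and without control 2 the one gene was *CHGB*. Those fits called 5.13%, 2.44%, 9.31% and 7.86% of all genes. With gag it stayed at 0 without any single library, and with NC it was 2 without control 1 (*CHGA* and *VGF*) and 1 without gag-pol 3 or replicate 1 (*VGF*). The share of all genes called in those fits was 0.188% to 2.44% with gag, and 9.89%, 13.5% and 2.88% with NC.

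Between constructs, gag-pol against gag had 2 of the 9 genes other than *SCG3* past the threshold, *CHGB* and *SYN1*, both lower with gag-pol, where 3.42% of genes were lower and 6.46% differed in either direction. The count was 0 without gag-pol 1, gag-pol 3, gag 1 or gag 3, where 3.22%, 0.741%, 0.696% and 3.03% of all genes were called. It was 1, *CHGB*, without control 1, control 2, gag 2 or NC 1, where 6.45%, 5.28%, 2.7% and 5.22% were called. NC against gag had 0 of the 9 genes other than *SYN1* in edgeR, where 16.9% of all genes were called, with 4 at an unadjusted p under 0.05 and 3 called by DESeq2, *CHGB*, *PCSK1N* and *VGF*. It had 3 without control 3 or gag-pol 3 (20.4% and 19.1% of all genes). It had 1 without control 1, gag-pol 2, NC 2 or NC 3 (15.9%, 15.8%, 12.4% and 12.9%). *PCSK1N*, at a log2 fold change of 0.25 with NC (SE 0.09, 3 of 3 replicates higher, edgeR adjusted p = 0.0568), was called by DESeq2 (0.0387) and by edgeR without control 3 (0.0411), gag-pol 3 (0.0497), NC 3 (0.0258) or replicate 3 (0.0164). *SYN3* was called there without NC 2, at 0.63 (edgeR adjusted p = 0.0499). NC against gag-pol had 0 of 8 in edgeR, against 0.0873% of genes, with 3 at an unadjusted p under 0.05 and 0 called by DESeq2 or without any single library.

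**Figure D3:**
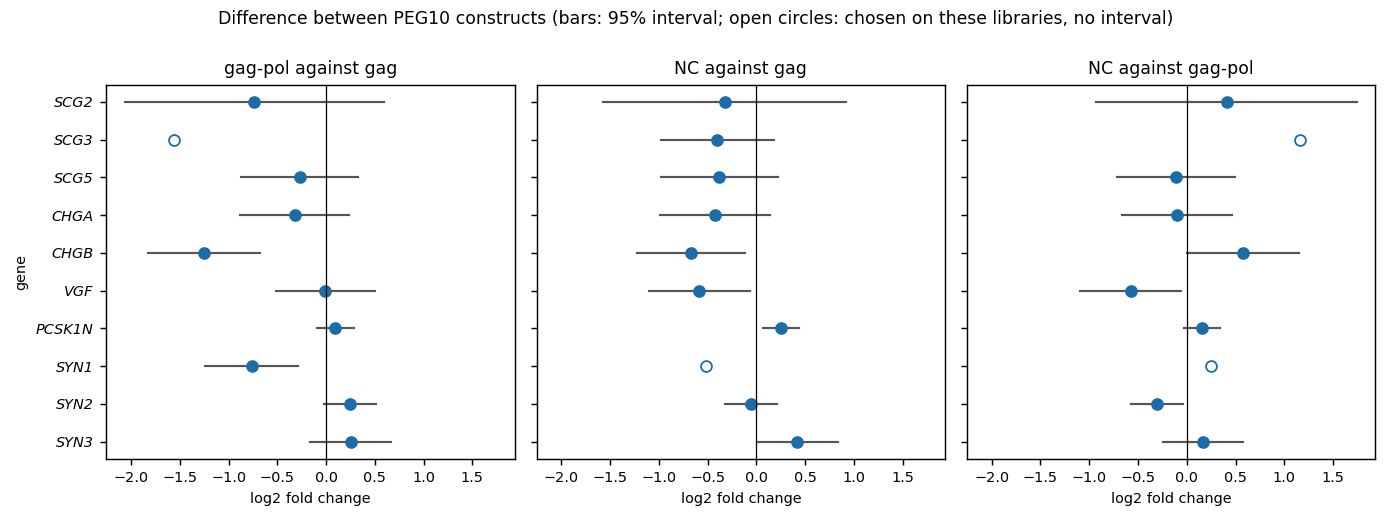
Log2 fold changes of each gene (horizontal axis) between the PEG10 constructs, with 95% intervals for tested values and open circles without interval for values of *SCG3* and *SYN1* that share libraries with their choice. *CHGB* at -1.25 and *SYN1* at -0.76 were called between gag-pol and gag.

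The mean of gag-pol, a polyprotein that cleaves itself, and NC, one of its fragments, was also compared with the mean of gag and control. Here 2 of the 8 genes whose values did not enter the choice passed the threshold, *CHGB* and *SCG5*, both lower, against 24.7% of genes in either direction and 11.6% lower, a share close to the background. *SCG3* and *SYN1* were lower too, and nothing is read from that. *CHGB* had a log2 fold change of -0.75 (SE 0.19, lower in 3 of 3 replicates, edgeR adjusted p = 0.00922) and lost the call without replicate 3 (0.106). *SCG5* had one of -0.55 (SE 0.20, lower in 3 of 3 replicates, edgeR adjusted p = 0.0494) and lost the call in 10 of the 12 fits without a single library, at adjusted p-values of 0.0606 to 0.16, the exceptions being gag-pol 1 and gag 1. *CHGA* at -0.50 and *SYN2* at 0.24 were just outside it (edgeR adjusted p = 0.0601 and 0.057). *CHGA* was called without control 1 (0.0245), gag-pol 2 (0.0286), gag 2 (0.0429) or replicate 2 (0.0244), *SYN2* without NC 1 (0.0355) and *VGF* without control 1, at -0.44 (0.0137), all in edgeR.

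Replicate number, which the choice of genes did not use, was tested too, and differences by number were common over all genes. Of the 10 genes, 8 differed between replicate numbers in edgeR's quasi-likelihood test, all but *PCSK1N* (adjusted p = 0.0763) and *SYN3* (0.305), against 52.8% of all genes. *SCG3*, *CHGA* and *CHGB* were highest in replicate 1, with log2 differences of replicate 3 from 1 over all constructs of -1.65, -1.20 and -1.68 (edgeR adjusted p = 1.96e-05, 0.000361 and 2.32e-05). *SYN1* was also highest in replicate 1 but lowest in replicate 2, at -1.66 from 1 (edgeR adjusted p = 2.97e-06). *SCG5* ran the opposite way and was highest in replicate 3, at 1.90 above replicate 1 (edgeR adjusted p = 3.59e-06). Without replicate 1, 3 of the 10 genes differed by number, against 21.2% of all genes. Without the replicate term in the model none of the 10 was called in any comparison with control or between gag-pol and gag. That model called 0.0116% of all genes in each comparison with control and 0% between gag-pol and gag, so nothing is read from this about the 10.

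**Figure D4:**
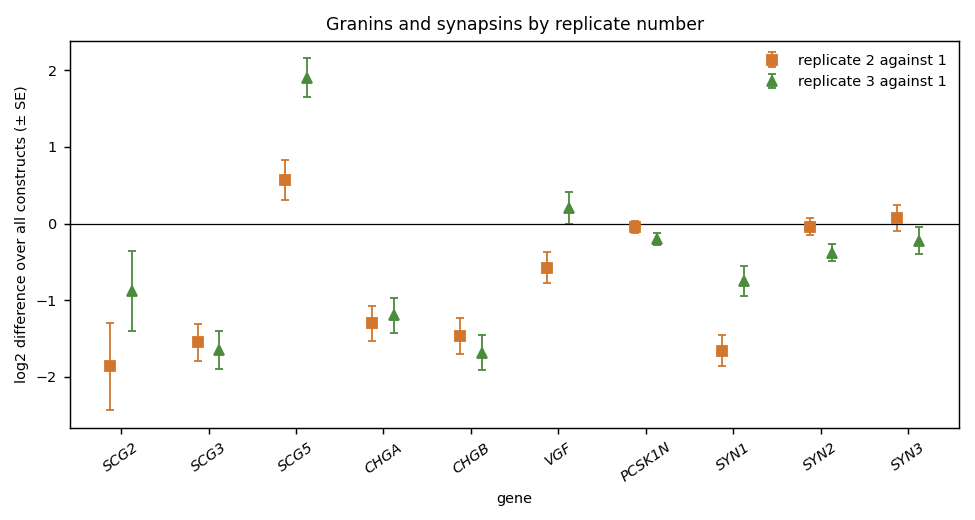
Log2 difference of replicates 2 and 3 from replicate 1 over all 4 constructs (vertical axis) for each gene, with bars of 1 SE. *SCG3*, *CHGA* and *CHGB* lie below -1 in both, *SCG5* reaches 1.90, and *PCSK1N* and *SYN3* stay near 0.

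Over the 12 libraries, which share construct and replicate structure, the transcripts whose log2 CPM (counts scaled by library size) resembled *SCG3* most were *ANKRD31* (Pearson r = 0.97), *ZNF429*, *RNF146*, *UNC79* and *RPP38* (r = 0.95 each) among 13418 genes compared. *SYN1* was most like *PPP2R3C*, *DHX9* and *RUFY1* (r = 0.98 each) and *PPIG* and *RNF40* (r = 0.96 each). No granin or synapsin was among these closest genes. Among the members, r with *SCG3* ran from -0.31 (*SCG5*) to 0.88 (*CHGB*), with *CHGA* at 0.83 and *SYN1* at 0.80. With *SYN1* it ran from -0.39 (*SYN2*) to 0.83 (*CHGA*). Once replicate differences were removed, r with *SCG3* ran from -0.80 (*SYN2*) to 0.80 (*SYN1*), and that with *SCG5* was 0.57. With *SYN1* it then ran from -0.76 (*SYN2*) to 0.80 (*SCG3* and *CHGA*). All these values are a description, since the values that chose *SCG3* and *SYN1* enter them. Replicate differences enter those given before the removal.

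The rest of the regulated secretory pathway was followed as 92 genes in 4 lists, of which 74 were tested. With gag-pol 4 rose and 6 fell, with gag 1 rose, and with NC 6 rose and 5 fell, with medians of -0.09, -0.11 and -0.03. The 10, 1 and 11 calls of 74 stand beside 11.3%, 1.08% and 11.2% of all genes, so they are no result about the list. The 10 calls with gag-pol became 6 without control 2, 4 without control 3 and 5 without gag-pol 1 or gag-pol 3. Of all genes, 7.86%, 4.22%, 5.13% and 4.97% were called in those fits. The 11 with NC became 4 without control 2, 2 without control 3, 4 without NC 1, 6 without NC 2 and 2 without NC 3. Of all genes, 6.71%, 2.1%, 5.5%, 8.49% and 4.69% were called in those fits. With gag the count was 0 without control 1, control 2, gag-pol 2, gag 1 or NC 3, 2 without gag-pol 3 or NC 1 and 3 without control 3 or NC 2. Those fits called 0.188% (without gag 1) to 2.44% (without control 3) of all genes.

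Among 8 prohormone processing genes, *CPE*, the carboxypeptidase that trims prohormones, fell with gag-pol by 0.38 on the log2 scale (SE 0.09, edgeR adjusted p = 0.00667), and its call held without any single library but was lost without replicate 1 (0.0894). Of 20 peptide precursors 6 were tested, and *ADM* (adrenomedullin) rose with gag by 0.70 and *CALCB* (beta-CGRP) with NC by 0.54 (edgeR adjusted p = 0.0361 and 0.0482). The *ADM* call was lost without control 1 or 2, gag-pol 2, gag 1 or 3 or NC 3 (adjusted p = 0.0523 to 0.272), and the *CALCB* call without any library but gag-pol 3 and gag 3 (0.0527 to 0.177), all in edgeR.

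Of 34 tested granule exocytosis genes 3 rose and 3 fell with gag-pol, 0 were called with gag and 4 rose and 2 fell with NC, beside 11.3%, 1.08% and 11.2% of all genes in either direction. *CPLX1*, a complexin that clamps the fusion machinery, rose by 0.52 with gag-pol and by 0.50 with NC (edgeR adjusted p = 0.00614 and 0.00951), and the second call was lost without NC 3 (0.0509) or replicate 2 (0.0616) and both without replicate 1 (0.101 and 0.0792). *STX1A*, the plasma membrane SNARE syntaxin 1A, fell by 0.53 with gag-pol (edgeR adjusted p = 0.00544, lost without control 3 at 0.0545) and by 0.46 with NC (0.0137, lost without control 2 or 3 or NC 2 or 3 at 0.0509 to 0.131). *SNAP25*, its SNARE partner, fell by 0.63 with gag-pol (edgeR adjusted p = 0.023, lost without control 1 or 3 or gag-pol 1 at 0.103 to 0.194). *RAB3D*, a small GTPase of secretory granules, rose by 0.47 with gag-pol and 0.49 with NC (edgeR adjusted p = 0.044 and 0.0364), both lost without control 2 or 3. The first was also lost without any gag-pol library, gag 2 or NC 1 and the second without any NC library, at edgeR adjusted p-values of 0.0529 to 0.266 and 0.0632 to 0.264.

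Of 26 tested synaptic vesicle genes, *RIMS3*, a small relative of the active zone scaffold RIM, rose by 0.67 with gag-pol and by 0.83 with NC, with a log2 fold change of -0.03 with gag, which was not called (edgeR adjusted p = 0.00384, 0.00143 and 0.959), and both calls held without any single library. *PCLO*, the active zone protein piccolo, fell by 0.76 with gag-pol, and the vesicle protein gene *SV2A* and the lipid phosphatase gene *SYNJ1* fell by 0.32 and 0.35 with NC (edgeR adjusted p = 0.0462, 0.0288 and 0.0311). The *PCLO* call was lost without any control or gag library, gag-pol 1 or gag-pol 3 (adjusted p = 0.0548 to 0.218). The *SV2A* call was lost without control 2 or 3 or NC 1 or 3 (0.0609 to 0.254), and the *SYNJ1* call without control 2 or 3 or NC 1 or 2 (0.0522 to 0.251), all in edgeR. Of 11 kinases that phosphorylate synapsins, *SRC* alone was called against control, where it rose by 0.26 with gag-pol (edgeR adjusted p = 0.0437, lost without control 1 or 3, gag-pol 1 or 3 or any gag library at 0.052 to 0.205).

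**Figure D5:**
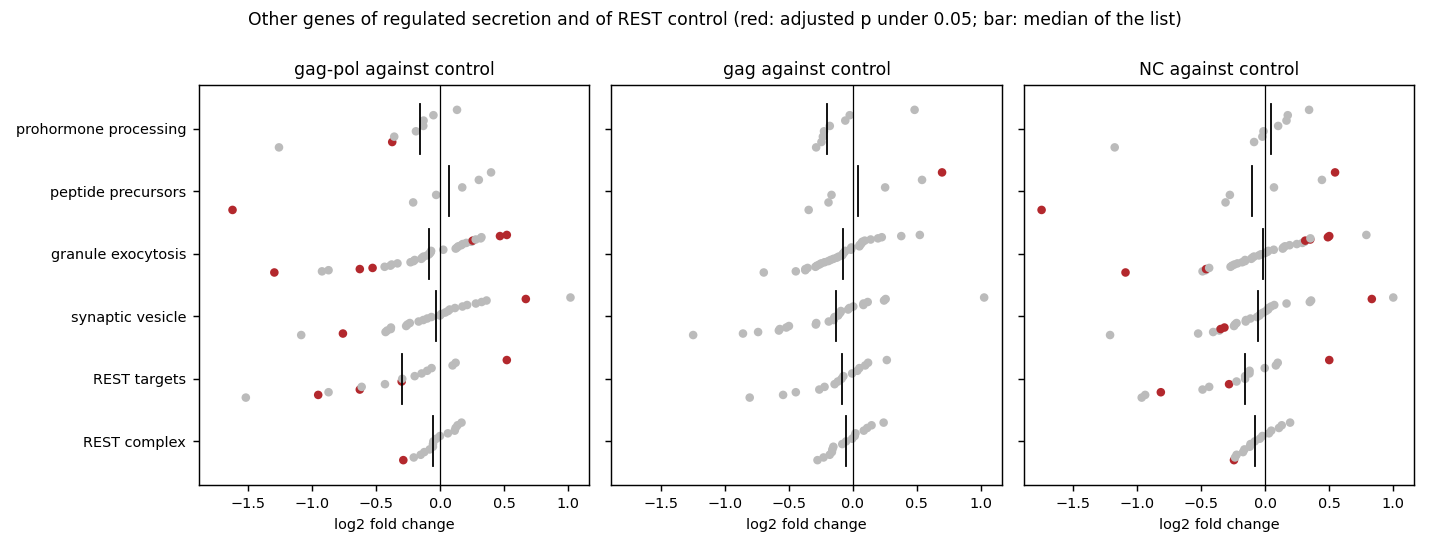
Log2 fold changes (horizontal axis) of the tested genes of 6 lists with gag-pol, gag and NC against control, 1 point per gene, red where the adjusted p was under 0.05, and a bar at the median of the list. Most points lie near 0, and *ADM* is the red point with gag.

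Transcripts of the regulators named above were also counted. *REST* had log2 fold changes of -0.06, 0.02 and -0.12 with gag-pol, gag and NC, and none was called (edgeR adjusted p = 0.719, 0.955 and 0.395). Of 15 tested genes of the REST complex, *PHF21A* alone was called, and it fell by 0.29 with gag-pol and 0.25 with NC (edgeR adjusted p = 0.018 and 0.0432), calls lost without control 1 or 3 or gag-pol 1 or 3 (0.0721 to 0.105) and without any library but gag-pol 3 (0.0509 to 0.165). Of 15 listed REST targets, 1 rose and 3 fell with gag-pol, 0 were called with gag, and 1 rose and 2 fell with NC, beside 11.3%, 1.08% and 11.2% of all genes, and nothing is read from the 15 genes as a list. Calls already counted with granule exocytosis are among them: *CPLX1*, which rose with gag-pol and NC, and *SNAP25*, which fell with gag-pol. *RUNDC3A*, a neuronal gene, fell by 0.95 with gag-pol and 0.82 with NC (edgeR adjusted p = 0.00772 and 0.0204), calls lost without control 3 or gag-pol 1 or 3 (0.0629 to 0.0812) and without control 3 or NC 2 or 3 (0.0782 to 0.193). *CELSR3*, an adhesion receptor of axon guidance, fell by 0.30 and 0.28 (edgeR adjusted p = 0.0266 and 0.0377), calls lost without control 2 or 3 or gag-pol 1 or 3 (0.0526 to 0.204) and without control 2 or 3, gag 1 or NC 2 or 3 (0.0565 to 0.295). Of 6 genes of the CREB family, the coactivator *CRTC2* was the one called against control, falling by 0.42 with NC (edgeR adjusted p = 0.00467, lost without control 3 at 0.0528).

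The other genes whose promoters hold the pair of RE1 parts were looked up in the same table. With the *SYN1* spacing they were *BSX*, *DRD3* and *GRIA2*, which were too low to be tested, and *LHX3*, with log2 fold changes of -0.46, 0.58 and -0.90 with gag-pol, gag and NC (edgeR adjusted p = 0.65, 0.716 and 0.347). With the *SCG3* spacing they were *TPH2*, too low to be tested, and *UNC13A*, with -0.20, -0.26 and -0.16 (edgeR adjusted p = 0.628, 0.692 and 0.716). *LHX3* had 7 to 42 counts per library, and nothing is drawn from these values.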

How the data were processed

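Poly(A) RNA of 12 libraries (4 constructs, 3 replicates) had been sequenced as read pairs by the authors. Per the submitters' processing notes, reads were handled with STAR 2.7.3, SAMtools 1.8 and featureCounts on GRCh38.p13. The deposited values are raw counts per gene symbol. The annotation release, strand setting and treatment of multi-mapping reads are not given in the sources used here, so overlapping genes are uncertain.

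Counts were fitted once over all 12 libraries with edgeR 4.0.16 (R 4.3.3, limma 3.58.1): TMM factors, the filter on low counts by construct (minimum count 10, minimum total 15), and the robust quasi-likelihood test with construct and replicate number as terms, leaving 6 residual degrees of freedom. P-values were Benjamini-Hochberg adjusted over 17176 genes, which hold 99.97% of counts, with a threshold of 0.05. Standard errors were derived from the F statistic. The precision is set by depth (30625725 to 45316749 counts per library) and by a biological coefficient of variation of 10.7%. Counts were normalized by the product of library total and TMM factor, then rescaled to the average library. Levels per kilobase use exon lengths of GENCODE 44, the source of gene coordinates on GRCh38. Promoters are from RefSeq (GRCh38.p14) and were searched in Python 3.11.15 with pandas 2.3.3; figures were drawn with matplotlib 3.10.9. The fit was tested on simulated data.

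The authors modelled the harvest date. Replicate numbers were kept as a block because same-numbered libraries deviated together: correlations of deviations from the construct means were 0.14 to 0.54 for 18 same-number pairs and -0.50 to 0.07 for 36 others. Deviations cancel within each construct, so the lower values of the others follow in part from those of the same-number pairs. Replicates differed beyond sampling noise (chi-square per degree of freedom 32.9 to 110).

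The 10 genes, the gene lists and the tests were chosen with earlier results of these data known. Genes named from the lists were called against control at a mean log2 CPM of at least 1, at most 4 per list by fold change. The RE1 parts were searched at 2 bases, the canonical spacing, and at 8 bases, a spacing set after the parts were located in *SCG3*. *NEFL*, *GAD1*, *RBFOX3*, *SLC17A7*, *PNMT*, *LHX3* and *UNC13A* were named after their values were seen. Alternatives were DESeq2 1.42.0, RLE factors, no filter, no replicate block, *PEG10* left out, only the libraries compared, and each library or replicate number left out.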

Additional observations from a re-analysis of the deposited data

Results flagged for a closer look

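The effects of gag-pol and of gag share the control libraries. In the comparison of these constructs themselves 2 of the 9 genes other than *SCG3* differed, where 6.46% of all genes were called. *CHGB* was lower with gag-pol at a log2 fold change of -1.25 (lower in 3 of 3 replicates, edgeR adjusted p = 0.0123), and its differences from control were -0.82 with gag-pol and 0.43 with gag. *SYN1* was lower with gag-pol at -0.76 (lower in 3 of 3 replicates, edgeR adjusted p = 0.0492). Its differences from control of -1.71 and -0.95 share libraries with its choice and are a description. The *CHGB* call was lost in 5 and the *SYN1* call in 10 of the 15 fits that left out 1 library or replicate number. Groups of 3 libraries are too small for a test of single outlying libraries.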

How the results depend on the processing

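Counts of called granins and synapsins below leave out *SCG3* and *SYN1* in comparisons that use the libraries that chose them. Of 70 results on single granins and synapsins, RLE factors and leaving out *PEG10* changed 0. Calls were followed only for tested values, so calls gained or lost on the untested values of *SCG3* and *SYN1* are not in this tally. DESeq2 changed 8, all newly called. Without a filter 1 call was lost and 3 were gained. Without the replicate block 5 calls were lost and 3 values changed sign. In every construct comparison in which the block gave a call, 0 granins or synapsins and 0 regulated secretion genes were then called. At most 0.0116% of all genes were called in any comparison without the block, so nothing is read from these losses about the genes. *SYN1* between gag-pol and gag was at -0.78 without the block (edgeR adjusted p = 0.808). The cause of the other changes was not tested. With DESeq2, 2 of 8 granins or synapsins were called for NC against control and 3 of 9 for NC against gag. For NC against gag-pol it called 0 of 8. DESeq2 called 15.8%, 22.3% and 0.854% of all genes in these comparisons. The fit without a filter called 0, 1 and 0 of the same genes, beside 10.1%, 13.8% and 0.562% of all genes. Fitting only the libraries compared gave 2 of 9 for NC against gag, where 12.9% of all genes were called. For regulated secretion genes, gag against control gave 4 with DESeq2, 2 without a filter and 3 with only the libraries compared (3.2%, 1.63% and 2.07% of all genes). NC against gag-pol gave 1 with DESeq2 and 1 without a filter (0.854% and 0.562%). Gag-pol against gag gave 15 with only the libraries compared, where 15.9% of all genes were called. Signs turned without the block for *SCG2* (-0.0221 for gag-pol against control, -0.20 for gag-pol and NC against the other groups) and *SCG5* (0.0148 for NC against gag-pol), and with only the libraries compared for *VGF* (0.0059 for gag-pol and 0.033 for gag, against control).

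Leaving out 1 library or replicate number gave 2 to 4 granins or synapsins for gag-pol against control, 0 to 1 for gag against control, 1 to 4 for NC against control, 0 to 3 for gag-pol against gag, 0 to 3 for NC against gag, 0 to 1 for NC against gag-pol, 2 to 5 for gag-pol and NC against the other groups, and 3 to 8 by replicate number. For regulated secretion genes the ranges were 3 to 15, 0 to 5, 2 to 14, 0 to 11, 3 to 16, 0 to 2 and 9 to 19 in the same order. The same fits called 2.44% to 13.9%, 0.127% to 4.26% and 2.1% to 13.5% of all genes with gag-pol, gag and NC against control. For gag-pol against gag the share was 0.0693% to 10.6%, and for NC against gag 1.98% to 20.4%. For NC against gag-pol it was 0% to 3.11%, and for gag-pol and NC against the other groups 13% to 23.2%. By replicate number 21.2% to 53.4% of all genes were called. *SYN1* between gag-pol and gag ranged from -0.92 to -0.55, and *SCG3* between NC and gag from -0.71 to -0.23. Signs turned within these ranges for *SCG2* (-0.76 to 1.25 for gag-pol against control, -0.21 to 1.48 for NC against gag-pol, -0.62 to 0.49 for gag-pol and NC against the other groups), *SCG5* (-0.33 to 0.19 for NC against gag-pol), *CHGA* (-0.50 to 0.14 for gag against control, -0.61 to 0.015 for gag-pol against gag, -0.37 to 0.12 for NC against gag-pol), *CHGB* (-0.47 to 0.14 for NC against control), *VGF* (-0.35 to 0.49 for gag-pol against control, -0.31 to 0.42 for gag against control, -0.19 to 0.25 for gag-pol against gag), *PCSK1N* (-0.0047 to 0.18 for NC against control), *SYN2* (-0.13 to 0.0486 for NC against gag) and *SYN3* (-0.30 to 0.0013 for gag-pol against control, -0.20 to 0.24 for NC against control). None of these was called. Depth limits *SCG2* most, at 1 to 47 counts per library.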
